A study of Mus musculus with 18 samples.

Results

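The late transcriptional response of wild-type (WT) mouse fibroblasts to proteasome inhibition was examined by setting NIH-3T3 cells after 24 h of 200 nM carfilzomib (CFZ) against NIH-3T3 cells in DMSO, the vehicle. NIH-3T3 cells are fibroblasts of mouse embryo origin kept as an established line, here from ATCC. The members of the comparison were 6 of the 18 RNA-sequencing libraries of the series, 3 labelled WT in DMSO and 3 labelled WT with CFZ for 24 h, and every gene that passed an expression filter was followed. The other libraries were WT cells after 6 h of 200 nM CFZ and a line with Nrf1 knocked out by CRISPR/Cas9 (Nrf1-KO) in DMSO, after 6 h or after 24 h of CFZ at the same dose, with 3 libraries a group. No time is given for DMSO, so the effects of CFZ and of time in culture cannot be told apart. The 3 libraries of a group are described as biological replicates, and the number of clones behind the Nrf1-KO line is not given in the sources used here. Total counts ran from 14347975 to 18941460 in the DMSO libraries and from 10069996 to 17176980 at 24 h. Levels are CPM, counts brought to a common library size by TMM scaling, which are relative to the other RNA of a library, so fewer cells of a type and less RNA per cell cannot be told apart.

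The proteasome is the protease complex that degrades proteins tagged with ubiquitin, and CFZ binds its chymotrypsin-like site irreversibly. Cells with a blocked proteasome are known to turn on several programmes together: heat shock factor 1 drives cytosolic chaperones, the unfolded protein response serves the endoplasmic reticulum (ER), NRF2 (Nfe2l2) drives antioxidant genes, ATF4 drives amino acid supply and CHOP, and NRF1 (Nfe2l1) drives the genes of the proteasome itself. Fibroblasts are otherwise known for dividing in culture and for secreting collagen, elastin and other proteins of the extracellular matrix.

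CFZ for 24 h raised genes of protein quality control and antioxidant defence and lowered genes of the matrix, of mitosis and of cholesterol synthesis. Of the 11762 genes tested, 9851 (83.8%) passed edgeR's quasi-likelihood test at an adjusted p of 0.05, 5083 (43.2%) higher and 4768 (40.5%) lower. The replicates were close (common biological coefficient of variation 3.13%), and 4288 of the called genes changed by less than 1.5-fold. At least 2-fold, 1234 genes (10.5%) were higher and 1705 (14.5%) lower, and 277 and 460 by at least 4-fold. In all, 9947 tested genes (84.6%) had DMSO and CFZ libraries that did not overlap in level. The median log2 fold change of all tested genes was 0.02. It moved by -0.137 with upper-quartile scaling and by -0.105 with library size alone, so changes of that size depend on the scaling.

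**Figure D1:**
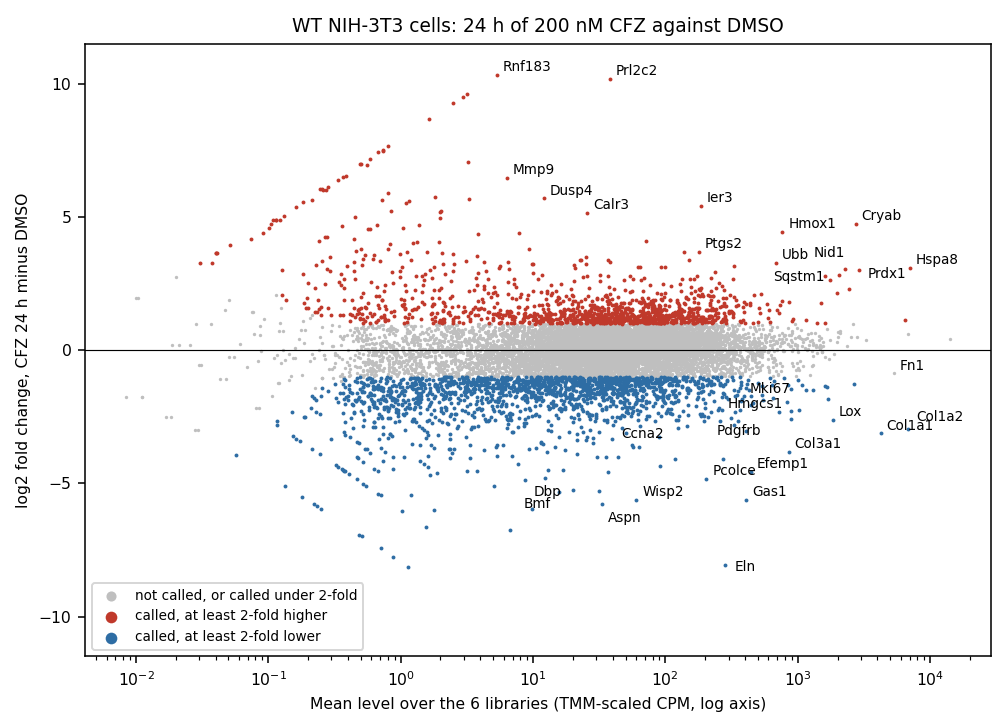
Log2 fold change of CFZ 24 h against DMSO (y axis) plotted against the mean level over the 6 WT libraries in CPM (x axis, log scale), 1 point per tested gene. Red and blue points passed the test with at least a 2-fold change, 1234 higher and 1705 lower; Cryab and Hspa8 stand out among the abundant genes that rose, and Eln, Col1a1 and Col1a2 among those that fell.

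The cells carried the markers of fibroblasts in every library. Of 12 fibroblast markers, 11 were over 1 CPM and Lum was under it. Their summed level fell from between 35680 and 38640 CPM in DMSO to between 8976 and 9247 CPM at 24 h, and each of the 11 had a lower mean at 24 h. Epithelial markers summed to 142.5 to 151.1 CPM in DMSO and 126.8 to 134.5 CPM at 24 h, with Epcam, Krt5 and Cldn7 at 0. Krt14 carried that sum, with a mean of 141.8 CPM in DMSO and 128.8 CPM at 24 h, and Cdh1 went from 6.116 to 0.5561 CPM. Leukocyte and macrophage markers summed to 8.263 to 8.944 CPM in DMSO and 37.5 to 40.27 CPM at 24 h. That sum came from Csf1r, Cd68 and Cd14, while Ptprc, Cd3e and Cd79a were at 0. Neural markers went from between 8.672 and 12.1 CPM to between 36.99 and 41.95 CPM, where only Tubb3 was over 1 CPM and Syt1 and Sox10 were at 0. Endothelial, muscle and adipocyte markers each summed to less than 5 CPM in all 6 libraries.

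The gene that rose most in CPM was Hspa8 (chr9:40800984-40810087, GRCm38), the constitutive HSC70 chaperone of the cytosol. Its level was 1500, 1469 and 1485 CPM in the DMSO libraries and 12536, 12909 and 12500 CPM at 24 h, which is 8.52-fold (log2 3.09, SE 0.039, adjusted p = 6.7e-34). Pseudogenes share 26.2% of the stretches of a read's length in its longest annotated transcript, the form used for all such shares. Cryab (chr9:50751325-50756636), the small heat shock protein alpha-B-crystallin, went from 199, 190 and 199 CPM to 5281, 5230 and 5314 CPM, a 26.9-fold rise (log2 4.75, SE 0.044). No DMSO library came near any CFZ library for either gene. Prdx1, a peroxiredoxin that removes hydrogen peroxide, went from 646, 659 and 644 CPM to 5002, 5364 and 5262 CPM (8.02-fold). Nid1, the basement membrane protein nidogen-1, went from 491, 512 and 455 CPM to 4131, 3984 and 4056 CPM (8.35-fold), against the fall of most matrix genes. The 5 largest gains in CPM were those of Hspa8, Cryab, Hsp90ab1, Prdx1 and Eef1a1, the translation elongation factor. Eef1a1 and Hsp90ab1 rose 1.33-fold and 2.17-fold from high levels, Hsp90ab1 from 4151, 4057 and 4095 CPM to 8726, 8994 and 8944 CPM.

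Among genes with a mean of at least 10 CPM, the largest relative rise was that of Prl2c2, which encodes the prolactin-family hormone proliferin. It had 0, 1 and 2 counts in the DMSO libraries and 774, 1285 and 1197 counts at 24 h, where its level was 78.7, 77.0 and 74.2 CPM. Of its stretches of a read's length, 56.1% also occur in Prl2c3 or a predicted gene, so the 2 paralogs may not be told apart. Ier3, an early-response gene linked to cell survival, rose 43.1-fold, from 8.52, 8.80 and 7.82 CPM to 356, 358 and 369 CPM. Dusp4, a phosphatase that acts on MAP kinases, went from 0.203, 0.354 and 0.862 CPM to 25.01, 22.96 and 23.06 CPM (50.1-fold). Calr3, a relative of the ER chaperone calreticulin, rose 35.6-fold to 48.2, 50.2 and 51.9 CPM. Further down the same ranking came Hmox1, Atf3, Ptgs2 (cyclooxygenase-2), Tnfrsf23 (a decoy receptor for the death ligand TRAIL), Osgin1, Zfand2a, Fosl1, Arl4d, Maff and Mllt11, which rose between 10.0-fold and 21.6-fold.

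Several genes went from silence to expression. Rnf183, an E3 ubiquitin ligase, had 0 counts in all 3 DMSO libraries and 110, 170 and 170 counts at 24 h. Against a floor of 3 counts per library its mean level of 10.6 CPM is at least 60.4-fold higher. Sstr5, a somatostatin receptor, and the chemokine Ccl5 were also at 0 in DMSO, and were at least 36.3-fold and 33.8-fold higher at 24 h. Nyx had 1, 0 and 1 counts in DMSO and 77, 90 and 97 counts at 24 h.

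The converse group fell to almost no counts. Zfp467 had 63, 49 and 69 counts in DMSO and 0, 1 and 1 at 24 h, and C1qtnf3 had 68, 47 and 46 counts in DMSO and 0, 0 and 1 at 24 h. Trp63, the transcription factor p63, had 66, 58 and 44 counts in DMSO and 1, 2 and 2 at 24 h. Mfap4 and Podn, a microfibril protein and a leucine-rich matrix proteoglycan, had between 35 and 64 counts in DMSO and between 1 and 3 at 24 h.

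Genes of the proteasome moved as a block. All 31 subunit genes of the list rose, 26 of them at least 2-fold, and the median log2 fold change was 1.49 beside 0.02 for all genes. Psmb3, a subunit of the catalytic core ring, rose 4.19-fold, from 122, 119 and 117 CPM to 493, 500 and 508 CPM, and Psmc4, an ATPase of the regulatory cap, rose 4.10-fold. Psmb5, which carries the site that CFZ binds, showed the smallest rise at 1.72-fold, from 57.2, 56.7 and 51.0 CPM to 93.9, 94.0 and 95.01 CPM. Nfe2l1 itself rose 1.26-fold, from 457, 437 and 449 CPM to 559, 555 and 580 CPM.

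Ubiquitin genes and their handlers rose with them, 20 of 21 members higher, 11 at least 2-fold, and 1 lower (median 1.15). Ubb, a gene for chained ubiquitin, went from 131, 119 and 129 CPM to 1198, 1231 and 1273 CPM, which is 9.76-fold. Zfand2a, an arsenite-inducible factor that binds the proteasome, rose 10.6-fold. Vcp, the p97 ATPase that pulls ubiquitinated proteins from complexes and membranes, rose 2.25-fold. Pseudogenes or a related gene share 46.6% of the read-length stretches of Ubb and 47.3% of those of Vcp.

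Cytosolic heat shock chaperones rose in 23 of 24 tested members, 20 of them at least 2-fold, with a median of 1.49, and the co-chaperone Fkbp4 fell (log2 -0.51). Together the list took 10500 to 10570 CPM in DMSO and 39400 to 40340 CPM at 24 h. Hsp90aa1, the inducible HSP90, rose 4.96-fold, from 799, 841 and 815 CPM to 3972, 4147 and 4067 CPM. Other genes, predicted genes among them, share 41.3% of its read-length stretches. Hspa1b, a stress-inducible HSP70, rose by less, 2.91-fold, from 27.3, 24.7 and 28.9 CPM to 77.0, 80.0 and 78.5 CPM, and shares 44.8% of its read-length stretches with Hspa1a or Hspa1l. Hspb1 had at most 2 counts in any WT library and was not tested.

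Promoter sequence was examined for motifs that are known for these programmes. A match is a description of the letters and not a bound site. RefSeq windows of 300 bases, 250 before to 50 after the start, were at hand for 8781 of the tested genes (11254 windows, GRCm38.p6). No window was at hand for Cryab, Hspa8, Hmox1, Eln, Col1a1 or Lox. List shares rest on few windows, since the lists are short, not every member has a window and some have several. The heat shock element, searched on both strands as GAANNTTC, lay in 48.1% of the windows of the cytosolic chaperone list and in 5.93% of all windows. It was in 6.93% of those of genes at least 2-fold higher and 5.83% of those at least 2-fold lower. The window of Hspa1b is shown because it holds a match close to the start, at position -104, in capitals (chr17:34959189-34959488, minus strand).
Hspa1b: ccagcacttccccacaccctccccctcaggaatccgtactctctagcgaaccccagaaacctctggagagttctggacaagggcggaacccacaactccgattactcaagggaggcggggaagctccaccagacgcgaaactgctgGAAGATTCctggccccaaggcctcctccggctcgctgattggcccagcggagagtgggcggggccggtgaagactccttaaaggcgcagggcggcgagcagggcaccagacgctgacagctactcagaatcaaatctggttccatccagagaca

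In the ER, 16 of 19 chaperones and oxidoreductases rose and 3 fell, but only 5 rose at least 2-fold (median 0.66). Hspa5, the ER chaperone BiP, rose 4.39-fold, from 724, 763 and 728 CPM to 3124, 3323 and 3278 CPM, and Ero1lb, an oxidase for disulfide bonds, rose 4.65-fold from a low level. ER-associated degradation was divided, with 9 of 17 genes higher and 6 lower (median 0.23). Syvn1, its ubiquitin ligase, rose 2.32-fold, whereas Herpud1, a stress-induced partner of that ligase, fell from 172, 175 and 175 CPM to 96.3, 95.8 and 97.5 CPM (1.80-fold lower).

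Autophagy and lysosome genes were mostly higher. Of 27 autophagy genes, 21 rose, 10 of them at least 2-fold, and 4 fell (median 0.56). Sqstm1, the p62 receptor that links ubiquitinated cargo to autophagosomes, went from 519, 498 and 517 CPM to 3522, 3634 and 3686 CPM (7.07-fold). Gabarapl1, a member of the ATG8 family, rose 5.08-fold and Atg14 rose 4.01-fold, but Map1lc3b, which encodes LC3B, rose 1.22-fold, and Tfeb, a transcription factor for lysosomal genes, fell from 16.0, 16.9 and 16.4 CPM to 5.18, 5.10 and 6.14 CPM. Of 26 lysosomal genes 22 rose, 9 at least 2-fold, and 3 fell (median 0.61). Atp6v1h and Atp6v1a, subunits of the proton pump that acidifies lysosomes, rose 4.18-fold and 2.23-fold, and Npc1, the lysosomal cholesterol exporter, rose 3.54-fold. Ctsd, the protease cathepsin D, went from 764, 695 and 731 CPM to 1563, 1598 and 1607 CPM (2.18-fold), with 34.4% of its exonic bases overlapped by a predicted gene on the same strand.

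The CLEAR-type E-box, the motif bound by TFEB, was searched as CACGTGAC on both strands and lay in 33.3% of the windows of the lysosome list and in 4.21% of all windows. It was in 4.47% of those of genes at least 2-fold higher and 2.76% of those at least 2-fold lower. The window of Ctsd is shown because it holds 2 matches, in capitals (chr7:142387778-142388077, minus strand).
Ctsd: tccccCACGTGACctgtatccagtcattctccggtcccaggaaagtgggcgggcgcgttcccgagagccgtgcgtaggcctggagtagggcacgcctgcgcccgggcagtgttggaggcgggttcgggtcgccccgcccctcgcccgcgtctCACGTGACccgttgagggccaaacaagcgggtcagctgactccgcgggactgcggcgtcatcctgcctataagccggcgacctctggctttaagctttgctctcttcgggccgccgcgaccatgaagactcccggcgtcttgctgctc

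**Figure D2:**
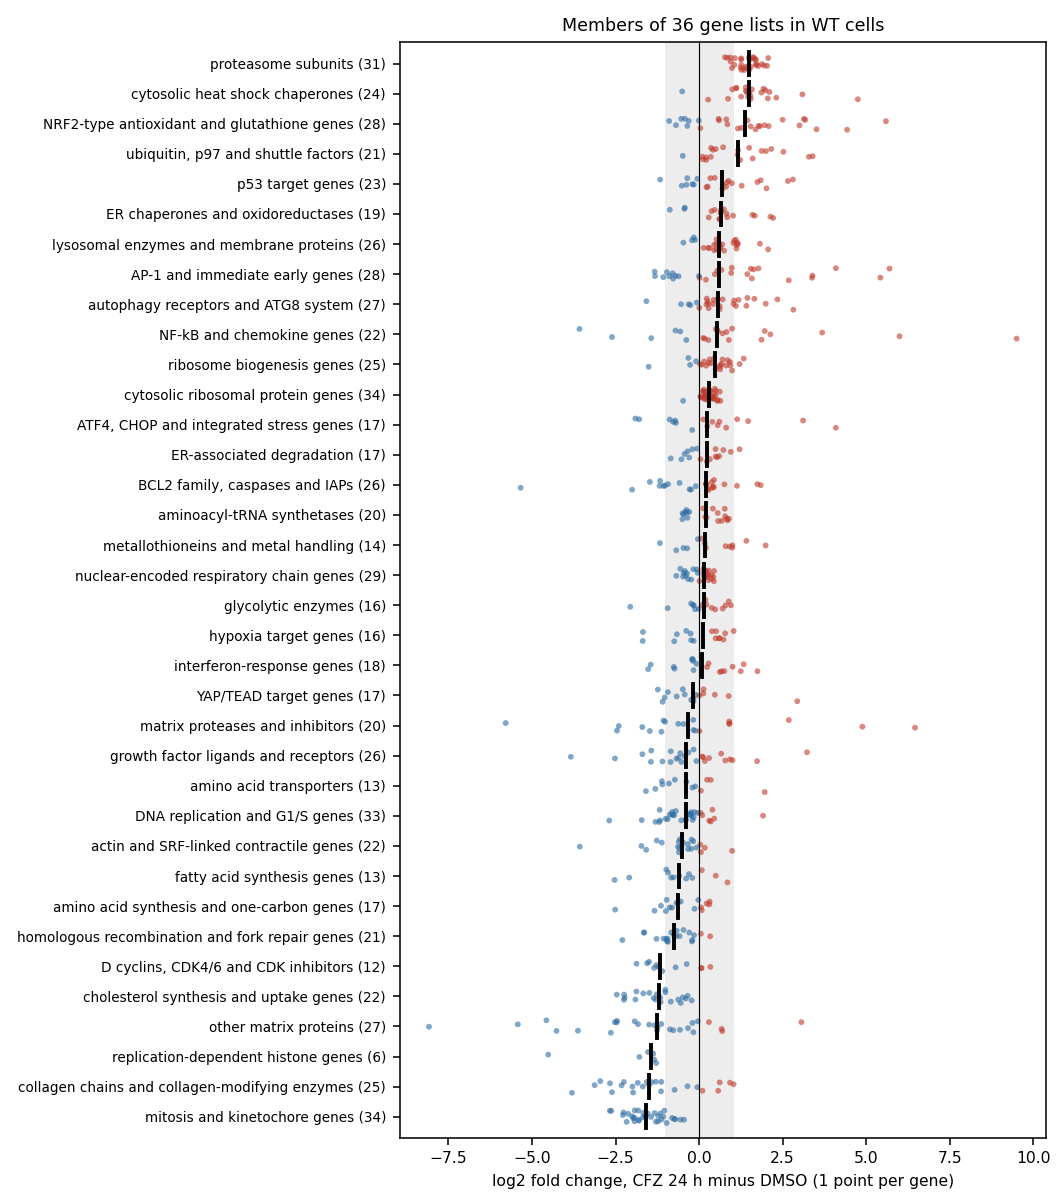
Log2 fold change of CFZ 24 h against DMSO (x axis) for the tested members of 36 gene lists (y axis, number tested in brackets), 1 point per gene, with the list median as a black bar and changes under 2-fold shaded. Medians run from 1.49 for proteasome subunits and for cytosolic chaperones down to -1.60 for mitosis genes.

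Antioxidant and glutathione genes of the NRF2 type rose in 20 of 28 tested members, 16 of them at least 2-fold, and 6 fell (median 1.36). Hmox1, heme oxygenase 1, went from 69.7, 64.4 and 69.3 CPM to 1443, 1458 and 1488 CPM (21.6-fold). Txnrd1, thioredoxin reductase, rose 4.24-fold, from 168, 194 and 179 CPM to 754, 759 and 775 CPM, and Slc7a11, the cystine importer, rose 3.88-fold. Nqo1, a quinone reductase often used as an NRF2 marker, went the other way, from 120, 110 and 109 CPM to 77.0, 78.5 and 78.8 CPM (1.45-fold lower).

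The core of the antioxidant response element, searched as TGACNNNGC on both strands, lay in 33.3% of the windows of this list and in 14.4% of all windows. It was in 16.6% of the windows of genes at least 2-fold higher and in 12.2% of those of genes at least 2-fold lower. The windows of Prdx1 (chr4:116685349-116685648, plus strand) and of Txnrd1 (chr10:82858956-82859255, plus strand, 1 of its 3 windows) are shown because both genes rose over 4-fold. The match, in capitals, starts at position -133 in Prdx1 and at position -92 in Txnrd1.
Prdx1: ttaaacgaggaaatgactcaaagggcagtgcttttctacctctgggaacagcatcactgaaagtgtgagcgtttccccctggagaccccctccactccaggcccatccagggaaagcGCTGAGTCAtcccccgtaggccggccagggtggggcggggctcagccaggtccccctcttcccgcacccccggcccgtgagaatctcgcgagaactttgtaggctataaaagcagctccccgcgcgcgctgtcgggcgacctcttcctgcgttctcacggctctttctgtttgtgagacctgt
Txnrd1: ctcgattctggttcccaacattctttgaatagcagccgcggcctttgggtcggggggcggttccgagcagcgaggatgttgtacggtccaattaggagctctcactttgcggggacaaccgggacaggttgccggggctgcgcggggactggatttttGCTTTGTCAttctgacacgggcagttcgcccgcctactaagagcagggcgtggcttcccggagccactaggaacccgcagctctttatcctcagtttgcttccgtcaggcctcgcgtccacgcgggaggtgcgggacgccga

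Genes of the integrated stress response were mixed, with 9 of 17 higher, 6 lower and a median of 0.25. Atf3, an early stress transcription factor, went from 7.51, 8.44 and 7.96 CPM to 137, 133 and 137 CPM (17.0-fold), and Ppp1r15a, which encodes the phosphatase subunit GADD34, rose 8.67-fold. Ddit3, the gene of CHOP, rose 2.76-fold, from 49.5, 48.1 and 49.1 CPM to 127, 135 and 142 CPM, whereas Atf4 itself rose 1.32-fold. Atf5 fell from 373, 362 and 366 CPM to 97.2, 96.1 and 100 CPM.

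The amino acid genes that ATF4 is known to drive were mostly lower at 24 h. Among 17 genes of amino acid synthesis and one-carbon metabolism 11 fell and 4 rose (median -0.63). Asns, asparagine synthetase, went from 483, 505 and 499 CPM to 314, 316 and 330 CPM. Psat1 and Phgdh of serine synthesis were 2.52-fold and 2.21-fold lower, and Pycr1 of proline synthesis was 5.80-fold lower. Other genes, predicted genes among them, share 30.5% of the read-length stretches of Phgdh. Amino acid transporters showed 9 of 13 lower and 3 higher (median -0.38), with Slc7a5, a subunit of the large neutral amino acid transporter, 2.16-fold lower. Aminoacyl-tRNA synthetases, which load amino acids onto tRNA, were 12 higher and 8 lower of 20 (median 0.20), with none changed 2-fold. The ATF4 element, searched as TGATGNAA, lay in 41.7% of the few synthetase windows and in 2.26% of all windows. It was in 2.89% of those of genes at least 2-fold higher and 2.26% of those at least 2-fold lower. Its share was 18.8% for amino acid synthesis, 13.3% for the transporters and 26.3% for the integrated stress list.

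Targets of p53 rose in 16 of 23 tested members, 6 at least 2-fold, and 5 fell (median 0.70). Mdm2, the ligase that degrades p53, rose 4.04-fold, from 76.0, 77.0 and 77.2 CPM to 305, 311 and 315 CPM, and Gadd45a rose 6.31-fold. Cdkn1a, the cell cycle inhibitor p21, rose 1.26-fold, from 126, 126 and 124 CPM to 158, 157 and 160 CPM. Bbc3, the killer protein PUMA, was 2.24-fold lower.

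The cell death list was divided, 14 of 26 higher and 11 lower (median 0.20), with 7 at least 2-fold lower and 3 at least 2-fold higher. Falls of that size were also the more frequent over all tested genes, 14.5% against 10.5% for rises. Pmaip1, the killer protein NOXA, rose 3.58-fold and Tnfrsf10b, the mouse TRAIL death receptor, rose 3.35-fold. Mcl1, the survival protein that NOXA binds, rose 1.36-fold. Bmf, a killer protein tied to the cytoskeleton, fell from 32.2, 29.6 and 29.97 CPM to 0.813, 0.600 and 0.868 CPM, the largest fall of this list at 40.3-fold. Bcl2l11, the killer protein BIM, Birc5, survivin, and Xiap, a caspase inhibitor, were 2.23-fold, 4.0-fold and 2.75-fold lower.

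Immediate early and AP-1 genes showed 17 of 28 higher, 11 at least 2-fold, and 9 lower (median 0.61). Fosl1 rose 10.5-fold, with 57.2% of its exonic bases overlapped by a gene on the opposite strand, and Jun rose 2.99-fold, from 84.1, 91.6 and 85.9 CPM to 262, 258 and 261 CPM. Egr1, by contrast, was 2.49-fold lower and Fos 2.09-fold lower from under 2 CPM. Myc rose 1.47-fold.

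Inflammatory genes split by gene. Of 22 tested NF-kB and chemokine genes 14 rose, 6 at least 2-fold, and 6 fell (median 0.55). Ptgs2 went from 24.1, 29.6 and 23.5 CPM to 333, 329 and 331 CPM (12.8-fold). Cxcl12, a stromal chemokine that holds stem cells and lymphocytes in place, fell from 106, 96.0 and 108 CPM to 8.03, 9.47 and 8.12 CPM (12.1-fold lower). Cxcl1 rose 4.51-fold and the adhesion protein Vcam1 was 2.71-fold lower. The pan-leukocyte marker Ptprc was at 0 throughout.

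The interferon, hypoxia and metal lists had medians near the median of all genes. Interferon-response genes were 8 higher and 6 lower of 18 (median 0.08), hypoxia targets 8 higher and 8 lower of 16 (0.11), and metal genes 8 higher and 4 lower of 14 (0.19). With upper-quartile scaling the interferon median was -0.057 and the hypoxia median -0.026, so the sign of both depends on the scaling. In the metal list Slc11a2 and Tfrc, which import iron, rose 3.98-fold and 2.66-fold. Metallothionein Mt1 rose 1.13-fold, a call lost under upper-quartile or library-size scaling. Mt2, another metallothionein, was 1.28-fold lower, with 73.5% of its exonic bases overlapped on the opposite strand. Vegfa rose 1.71-fold and Pdk1, a pyruvate dehydrogenase kinase, was 3.22-fold lower.

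Mitosis genes fell without exception in the list. All 34 were lower, 28 of them at least 2-fold, with a median of -1.60, and their summed level went from between 4866 and 5121 CPM to between 1680 and 1780 CPM. Ccna2, cyclin A2, went from 199, 211 and 208 CPM to 33.8, 34.7 and 31.7 CPM (6.18-fold lower). Ccnb2, cyclin B2, was 6.40-fold lower, and Cdk1, the kinase both cyclins serve, went from 124, 138 and 135 CPM to 62, 65.2 and 60.8 CPM. The proliferation marker Mki67 was 3.52-fold lower and Foxm1, a transcription factor for mitotic genes, 3.81-fold lower.

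Of the DNA replication genes 25 of 33 fell and 5 rose, with 7 at least 2-fold lower and a median of -0.39. Mcm2, part of the replicative helicase, was 1.32-fold lower and Pcna 1.19-fold lower, while Tk1, thymidine kinase, was 6.48-fold lower. Ccne1, cyclin E1, was at 14.2, 18.8 and 12.5 CPM in DMSO and 13.6, 15.5 and 14.9 CPM at 24 h, overlapping ranges that did not pass the test. Genes of homologous recombination and fork repair were 19 lower and 1 higher of 21 (median -0.75), with Brca2 4.96-fold lower and Brca1 1.17-fold lower.

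In the list of D cyclins, their kinases and CDK inhibitors 9 of 12 tested genes fell, 7 at least 2-fold, and 1 rose (median -1.16). Ccnd1, cyclin D1, went from 141, 159 and 149 CPM to 42.4, 37.8 and 42.7 CPM (3.65-fold lower). The inhibitors Cdkn2c and Cdkn2d were 2.82-fold and 3.00-fold lower too. Only 6 of 25 replication-dependent histone genes passed the filter, and all 6 were at least 2-fold lower (median -1.45). Most transcripts of this class are known to lack the poly(A) tail that mRNA selection uses.

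The CHR element, a motif of late cell cycle promoters, was searched as TTTGAA on both strands. It lay in 75% of the windows of the mitosis list and in 11.8% of all windows, and in 15.6% of those of genes at least 2-fold lower against 11.7% of those at least 2-fold higher. The E2F motif TTTCCCGC lay in 12.1% of the windows of the replication list and in 2.01% of all windows. Its share was 1.94% for genes at least 2-fold lower, near that of all windows, and 0.789% for those at least 2-fold higher. The windows of Ccnb2 (chr9:70421505-70421804, minus strand) and Cdk1 (chr10:69352863-69353162, minus strand) are shown because each holds 2 matches to the CHR element, in capitals.
Ccnb2: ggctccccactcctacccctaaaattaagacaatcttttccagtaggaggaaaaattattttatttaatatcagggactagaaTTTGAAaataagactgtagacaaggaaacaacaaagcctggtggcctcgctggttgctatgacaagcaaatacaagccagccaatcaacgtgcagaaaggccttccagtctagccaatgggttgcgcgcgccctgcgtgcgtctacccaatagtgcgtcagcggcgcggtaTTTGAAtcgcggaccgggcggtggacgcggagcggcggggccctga
Cdk1: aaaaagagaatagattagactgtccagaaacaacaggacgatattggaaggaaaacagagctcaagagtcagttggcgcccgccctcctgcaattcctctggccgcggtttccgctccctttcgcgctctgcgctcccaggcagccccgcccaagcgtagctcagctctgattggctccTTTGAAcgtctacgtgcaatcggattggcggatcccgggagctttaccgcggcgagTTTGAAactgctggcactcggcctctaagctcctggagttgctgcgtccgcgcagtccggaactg

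**Figure D3:**
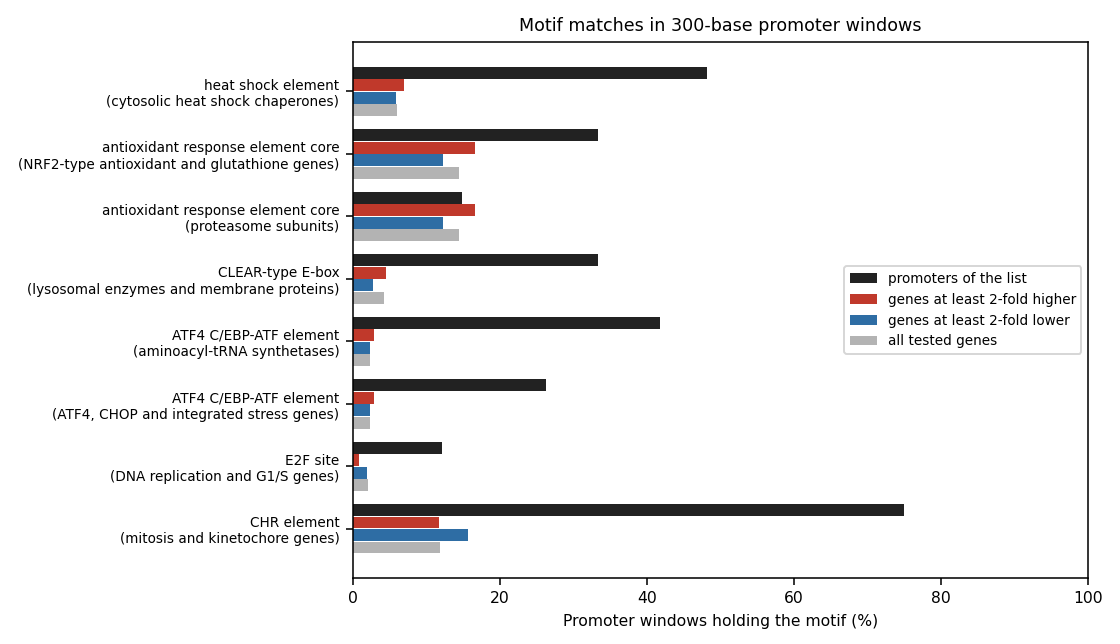
Share of 300-base promoter windows holding a motif (x axis, percent) for 8 pairs of motif and list (y axis). Black bars are the windows of the list, red and blue bars those of genes at least 2-fold higher or lower, and grey bars those of all tested genes; the mitosis list reaches 75% for the CHR element against 11.8% of all windows, whereas the proteasome list, at 14.8%, is level with all windows (14.4%) for the antioxidant element.

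Transcripts of the matrix fell widely, elastin furthest. Eln (chr5:134702593-134747323, GRCm38), the gene of elastin, went from 581, 551 and 549 CPM in DMSO to 2.44, 2.34 and 1.55 CPM at 24 h, 266-fold lower (log2 -8.08, SE 0.090, adjusted p = 2.4e-35). It showed the largest fall among the genes with a mean of at least 10 CPM. Of 25 tested genes for collagen chains and collagen-modifying enzymes 19 fell, 17 at least 2-fold, and 5 rose (median -1.50). Their summed level dropped from between 34840 and 36880 CPM to between 8048 and 8265 CPM. Col1a2 and Col1a1, which form type I collagen, were the genes that lost most CPM. Col1a2 went from 12536, 12005 and 11932 CPM to 1559, 1545 and 1597 CPM (7.76-fold lower), and Col1a1 (chr11:94936224-94953042) went from 7975, 7569 and 7295 CPM to 916, 835 and 867 CPM (8.72-fold lower). Col3a1, the type III chain, was 14-fold lower, at 111, 116 and 114 CPM from 1639, 1516 and 1624 CPM.

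Among the genes that act on collagen, Lox, lysyl oxidase, which crosslinks collagen and elastin, went from 3230, 3118 and 3153 CPM to 528, 511 and 523 CPM (6.08-fold lower). Pcolce, which speeds the trimming of procollagen, went from 412, 378 and 393 CPM to 12.4, 13.9 and 14.9 CPM (28.7-fold lower). P4ha2, a prolyl hydroxylase of the collagen list, rose 2.05-fold.

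Other matrix proteins were 21 lower and 4 higher of 27 tested, with 16 at least 2-fold lower (median -1.26). Efemp1, the elastic fibre protein fibulin-3, went from 839, 840 and 857 CPM to 34.1, 37.6 and 34.8 CPM (23.8-fold lower). Sparc and Postn, which bind collagen, were 3.55-fold and 6.14-fold lower. Fn1, fibronectin, went from 7605, 6706 and 6315 CPM to 3912, 3643 and 3716 CPM (1.83-fold lower), and Nid1 was the member at least 2-fold higher.

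Matrix proteases and their inhibitors were mixed, 11 of 20 lower, 5 higher and a median of -0.32. Mmp2, gelatinase A, was 3.25-fold lower, from 845, 801 and 807 CPM. Mmp9, gelatinase B, appeared, from 0.0507, 0.236 and 0.133 CPM to 11.4, 11.9 and 14.3 CPM. Plaur, the urokinase receptor, rose 6.43-fold, while Adamts2, which trims procollagen, was 5.51-fold lower.

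Beyond the lists, the genes with the largest falls among those of at least 10 CPM included matrix, membrane and nuclear proteins. Gas1, a growth-arrest membrane protein, went from 829, 752 and 818 CPM to 17.3, 15 and 16.9 CPM (48.8-fold lower). Aspn, asporin, and Wisp2, a matricellular protein, were 53.7-fold and 51.7-fold lower, Prelp and Ptn, pleiotrophin, 20.2-fold and 17.2-fold lower. Tmem119 went from 64.0, 57.9 and 64.2 CPM to 1.32, 1.74 and 1.61 CPM. Dbp, a clock-output transcription factor, went from 40.7, 36.2 and 39.4 CPM to 1.12, 1.14 and 0.806 CPM (38-fold lower). Spon2, Atoh8, Ly6c1 and Ranbp3l were between 22.3-fold and 27.0-fold lower.

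**Figure D4:**
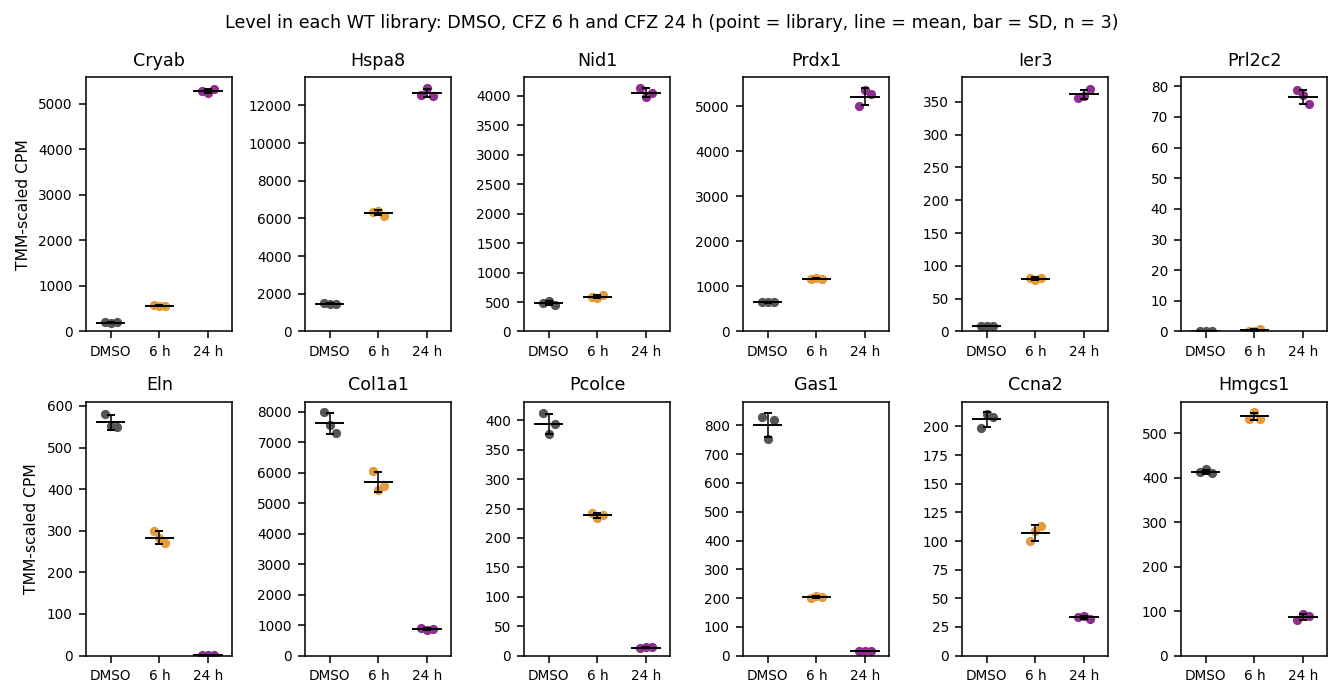
Level in CPM (y axis, each from 0) of 12 genes in the WT libraries in DMSO and after 6 h and 24 h of CFZ, with 1 point per library, the mean as a line and the SD as a bar (n = 3). Cryab, Prdx1 and Nid1 gain most of their rise between 6 h and 24 h, Prl2c2 is near 0 at 6 h, and Hmgcs1 is above DMSO at 6 h (538 CPM on average) and below it at 24 h.

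Actin and SRF-linked contractile genes were 16 lower and 2 higher of 22 (median -0.51). Acta2, smooth muscle actin, went from 495, 549 and 513 CPM to 154, 160 and 156 CPM (3.31-fold lower), and Actb was 1.26-fold lower. Vim, the intermediate filament of mesenchymal cells, was 2.40-fold lower. YAP/TEAD targets were 11 lower and 4 higher of 17 (median -0.17) and their best-known members diverged: Cyr61 rose 7.65-fold, from 49.5, 64.2 and 50.8 CPM to 426, 407 and 426 CPM, while Ctgf was 2.13-fold lower.

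Growth factor ligands and receptors were 15 lower and 8 higher of 26 (median -0.38). Hbegf, a ligand of the EGF receptor, rose 3.37-fold, from 6.34, 6.02 and 5.10 CPM to 19.8, 17.6 and 21.4 CPM. Pdgfrb, a receptor for platelet-derived growth factor, went from 377, 355 and 347 CPM to 63.4, 63.2 and 62.1 CPM (5.72-fold lower), whereas Pdgfra was 1.60-fold lower. Fgf7 and Fgf10, growth factors that act on epithelium, were 3.26-fold and 2.72-fold lower.

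Every tested gene of cholesterol synthesis and uptake fell, 22 of 22, 15 of them at least 2-fold (median -1.21). Hmgcs1, the synthase at the head of the pathway, went from 412, 419 and 411 CPM to 80.8, 94.2 and 88.4 CPM (4.71-fold lower). Idi1, from the middle of the pathway, was 5.48-fold lower. Fatty acid genes were 10 lower and 3 higher of 13 (median -0.59). The chain elongase Elovl6 was 4.25-fold lower and Acss2, which makes acetyl-CoA from acetate, 5.66-fold lower, while Fasn was 1.31-fold lower.

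Lists of energy metabolism had medians near that of all genes. Glycolytic enzymes were 9 higher and 6 lower of 16 (median 0.14), and Gapdh rose 1.14-fold (not called with upper-quartile scaling), but Ldha, lactate dehydrogenase A, fell from 715, 742 and 705 CPM to 171, 173 and 175 CPM (4.17-fold lower). Nuclear genes of the respiratory chain were 16 higher and 10 lower of 29 with none changed 2-fold (median 0.14). Sdha, of complex II, was 1.60-fold lower.

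Genes of the translation machinery were slightly higher. Cytosolic ribosomal protein genes rose in 31 of 34 and fell in 1, none by 2-fold (median 0.30, and 0.16 under the scaling that lowered it most). Ribosome biogenesis genes rose in 19 of 25 and fell in 3 (median 0.49), with Nop14 2.52-fold and Ncl, nucleolin, 1.59-fold higher, and Fbl, fibrillarin, at 70.3, 74.5 and 67.0 CPM in DMSO and 66.6, 67.8 and 65.0 CPM at 24 h without passing the test, which it passed as a fall under 8 of 15 alternatives. Ubtf, the factor that opens ribosomal DNA to RNA polymerase I, fell from 219, 233 and 224 CPM to 75.2, 79.6 and 81.6 CPM.

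Whether the response was already in place at 6 h was asked by comparing the WT CFZ libraries of both times directly. Of the tested genes 8510 (72.4%) differed, 4345 higher and 4165 lower at 24 h, and 607 and 814 did so by at least 2-fold. The comparisons of each time with DMSO share the DMSO libraries, so their medians are only set side by side. Heat shock chaperones had a median of 1.99 at 6 h and 1.49 at 24 h, and 16 of 24 were lower at 24 h than at 6 h. NF-kB and chemokine genes had a median of 1.79 at 6 h and 0.55 at 24 h, with 16 of 22 lower at 24 h. Ccl2, a chemokine for monocytes, averaged 161 CPM at 6 h against 10.9, 11.1 and 10.9 CPM at 24 h (log2 -3.88).

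Other groups moved mainly after 6 h. Cholesterol genes had a median of 0.23 at 6 h and -1.21 at 24 h, and 21 of 22 were lower at 24 h than at 6 h. Collagen genes had -0.24 and -1.50, mitosis genes -0.64 and -1.60, with 34 of 34 lower at 24 h, and lysosomal genes 0.03 and 0.61, with 21 of 26 higher at 24 h. Actin genes turned from 0.22 to -0.51 and amino acid synthesis genes from 0.14 to -0.63, with 20 of 22 and 14 of 17 lower at 24 h. Proteasome genes had most of their rise by 6 h, with medians of 1.20 and 1.49. Cryab averaged 569 CPM at 6 h, and its level at 24 h was higher than that by 3.21 on the log2 scale. Hgsnat, a lysosomal enzyme of heparan sulfate breakdown, averaged 48.0 CPM at 6 h and stood at 382, 388 and 385 CPM at 24 h (log2 3.01).

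**Figure D5:**
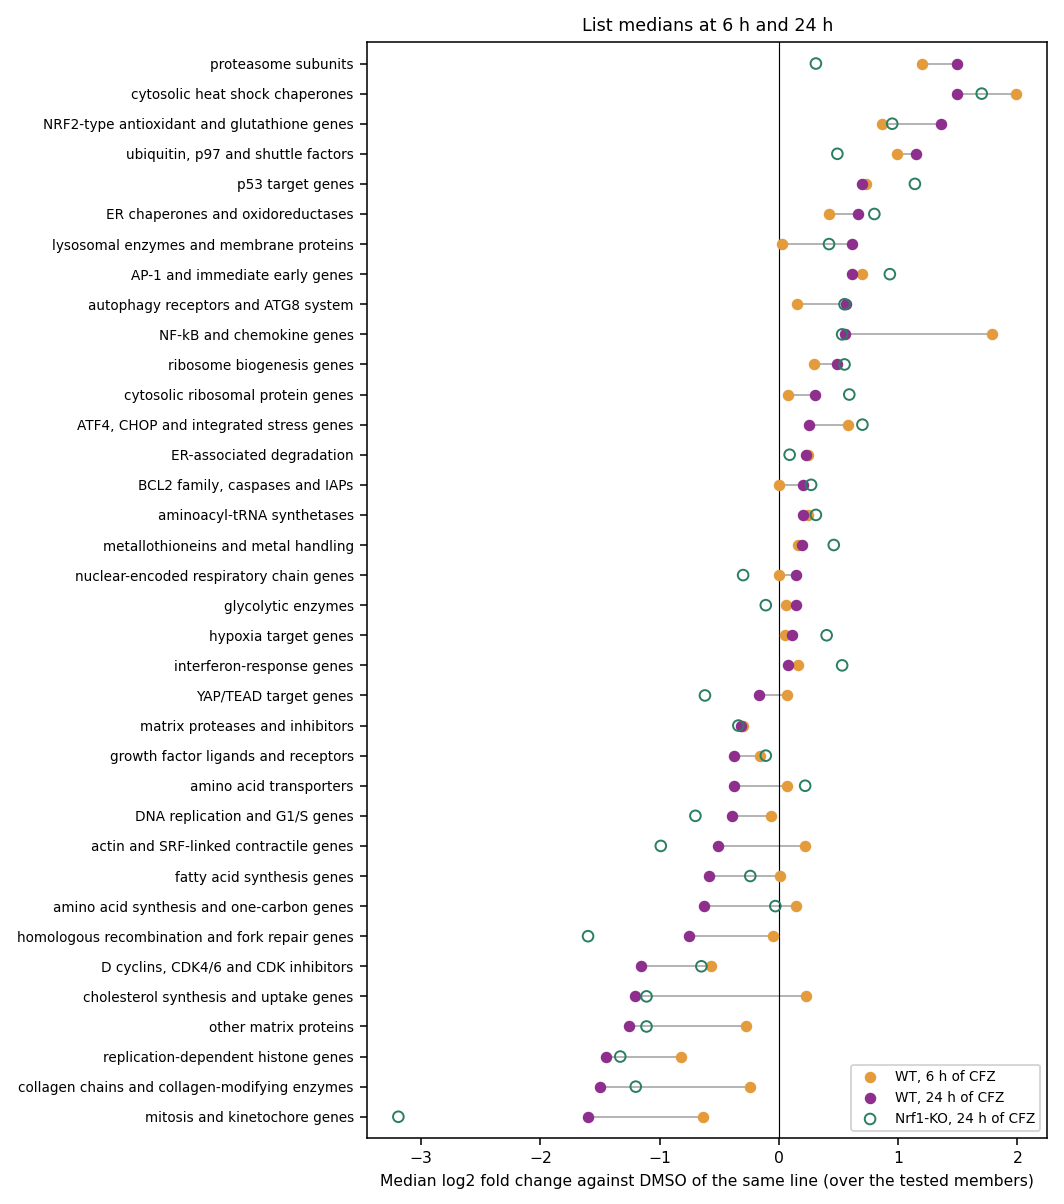
Median log2 fold change against DMSO of the same line (x axis) over the tested members of each of the 36 lists (y axis), in WT cells at 6 h (orange) and 24 h (purple) and in Nrf1-KO cells at 24 h (open green). Cholesterol genes lie right of 0 at 6 h (0.23) and far left of it at 24 h (-1.21), and mitosis genes reach -3.19 in the Nrf1-KO cells against -1.60 in WT.

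The same 24 h contrast in the Nrf1-KO line was set beside the WT response by a test of the difference. The responses differed for 7030 genes (59.8%), with 3498 more positive and 3532 more negative in Nrf1-KO cells, by the interaction of line and CFZ. Line and genotype cannot be told apart here. All 31 proteasome genes were more negative in Nrf1-KO cells, where their median was 0.31 beside 1.49 in WT. All 34 mitosis genes were more negative as well, with medians of -3.19 and -1.60, and so were 16 of 21 repair genes (-1.60 and -0.75) and 26 of 29 respiratory chain genes (-0.30 and 0.14). By contrast 16 of 24 heat shock genes were more positive in Nrf1-KO cells, as were 14 of 17 amino acid synthesis genes, 12 of 17 integrated stress genes, 18 of 25 collagen genes and 18 of 27 other matrix genes.

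Calr3 rose in WT cells and differed by -4.15 on the log2 scale in the Nrf1-KO response (adjusted p = 8.3e-17), and Mmp9 by -4.38 (adjusted p = 1.8e-05). Ddit4, an inhibitor of mTORC1, was 1.62-fold lower in WT cells, from 81.0, 77.4 and 74.8 CPM to 46.8, 46.7 and 50.5 CPM, and its response was more positive in Nrf1-KO cells by 2.501 (adjusted p = 4.3e-24). Col3a1 and Vim were also more positive there, by 2.001 and 1.29. In Nrf1-KO cells the log2 fold change of Col3a1 was -1.80 and that of Vim 0.022. For Hmox1, Prdx1 and Sqstm1 the differences between the lines were -0.193, -0.135 and -0.091, and the last did not pass the test (adjusted p = 0.11).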

How the data were processed

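RNA of WT and Nrf1-KO NIH-3T3 cells was made into stranded, poly(A)-selected mRNA libraries that the authors sequenced as paired 125-base reads and processed with RNA Express, which uses STAR and DESeq2. The authors deposited 1 table of raw read counts on 23420 gene symbols, without normalization, and 6577 rows had no count. The genome build, annotation and use of strand in counting are not given in the sources used here, so how reads of overlapping or near-identical genes were assigned is not known. The overlaps and shared stretches quoted come from GENCODE M21 (GRCm38), matched by symbol for 93.9% of the tested genes, and promoter windows are from RefSeq (GRCm38.p6). Shared stretches, GC content and exon numbers are those of the longest annotated transcript of a gene, which may not be the form expressed. A few named genes are not reported here. Spreadsheet dates replace 27 symbols, which are not named.

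Groups and replicate numbers are those of the labels. Genes were filtered with filterByExpr (minimum count 10, minimum total 15), TMM-scaled and tested with edgeR 4.0.16 in R 4.3.3 (glmQLFit and glmQLFTest, 1 model of 6 groups over 18 libraries), with Benjamini-Hochberg adjustment over 11762 genes and a threshold of 0.05. The common biological coefficient of variation was 3.13%. Each p-value sets a difference between groups against the spread of libraries within groups, estimated over all 18 libraries. Within a group the lowest correlation of log2 CPM was 0.9978, between DMSO and 24 h the highest was 0.9277, and replicates differed by more than sampling noise (chi-square per degree of freedom 1.462 or more). Same-numbered DMSO and 24 h libraries did not deviate together (correlations -0.0157, -0.00192 and -0.0045). The test was checked on simulated counts.

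The 36 gene lists, the markers and the comparison were chosen with earlier results of these data known. Lists are described by counts and medians, without a test. Genes named are the 15 largest rises and falls among called genes of at least 10 CPM, up to 3 per list and direction changed at least 2-fold plus fixed key members, the 5 largest gains and losses in CPM, the 5 that appeared or vanished (at most 3 counts per library), the 5 largest differences each way between times and lines among genes of at least 10 CPM, and Nfe2l1. Fkbp4 and Hspb1 were named outside this rule, with their values in view. The overall counts of genes, and the list medians and named genes of the WT 24 h contrast, were also computed in other ways. These were DESeq2 1.42.0, upper-quartile, RLE and library-size scaling, no filter, and a mean count of at least 10. Others were fits of the 2 groups or of the 9 WT libraries, the replicate block, and leaving out each library. With glmTreat at 1.5-fold only the overall counts were computed. Counts within lists, medians at 6 h or in Nrf1-KO cells, motif shares and gene features were not recomputed.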

Additional observations from a re-analysis of the deposited data

Results flagged for a closer look

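These results are given because the same contrast differed between times or between lines by a test of the difference itself (edgeR's quasi-likelihood test, adjusted over all genes). In WT cells 8510 genes differed between 24 h and 6 h of CFZ, and at 24 h the response of 7030 genes differed between Nrf1-KO and WT cells.

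Among genes with a mean of at least 10 CPM, the largest differences each way are given. On the log2 scale the level at 24 h minus that at 6 h was 7.65 for Prl2c2, 3.21 for Cryab, 3.01 for Hgsnat, 2.93 for Tnfrsf23 and 2.88 for Tnfrsf22, a neighbouring TRAIL decoy receptor. It was -7.10 for Eln, -4.52 for Wisp2, -4.45 for Aspn, -4.10 for Pcolce and -4.03 for Efemp1. The low counts of Prl2c2 at 6 h (0.375 CPM on average) make its value imprecise.

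The Nrf1-KO response minus the WT response at 24 h was 3.07 for Atf3, 2.70 for Adamts1, a matrix protease, 2.61 for Bmf, 2.501 for Ddit4 and 2.48 for Traf4, an adaptor of receptor signalling. It was -4.15 for Calr3, -3.74 for Hmmr, -3.63 for Cenpf, -3.34 for Nuf2 and -3.04 for Gen1, of which Hmmr, Cenpf and Nuf2 act on the mitotic spindle or kinetochore and Gen1 resolves recombination intermediates. Adamts1 was at 159, 167 and 158 CPM in WT DMSO and at 151, 148 and 147 CPM at 24 h.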

How the results depend on the processing

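Each overall count of genes stayed within 1.5 times its value under DESeq2, the 3 other scalings and both other filters. The same held for the replicate block, each left-out library and both smaller fits, where these held the libraries compared. Called genes ranged from 9537 (DESeq2) to 10224 (no filter), and from 9585 to 9722 with a library left out. With glmTreat, which asks for a change beyond 1.5-fold, 4601 genes were changed, 2165 higher and 2436 lower, 2166 differed between 24 h and 6 h, and 1384 differed between the lines. Fewer genes pass because small changes no longer count. The labels do not say whether the replicate numbers pair the libraries. With the replicate block 9887 genes were called. The interferon median turned to -0.057 (upper quartile), -0.025 (library size alone), -0.08 (mean count of at least 10), -0.109 (the 2 groups only) and -0.109 (the 9 WT libraries), and the hypoxia median to -0.026 (upper quartile). No other list median changed sign. Among named genes Ccne1 turned to 0.141 without WT DMSO replicate 2 (range -0.15 to 0.141 over the left-out libraries), and Gdf15, at most 0.12 CPM, to -0.404 without WT DMSO replicate 1 and to -0.504 without WT CFZ 24 h replicate 2 (range -0.504 to 1.088). None of these was called. Calls were lost for Nop56, Gapdh and Mt1 with upper-quartile scaling (adjusted p from 0.12 to 0.55), for Mt1 also with library size alone (0.22), and for Adamts1 without WT DMSO replicate 2 (0.1) or WT CFZ 24 h replicate 3 (0.063). Fbl and Isg15 gained a call, as lower, under 8 and 7 of 15 alternatives: upper-quartile, RLE and library-size scaling, no filter, both smaller fits and, for Fbl, without WT DMSO replicate 1 or 3, for Isg15 without WT DMSO replicate 2.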

Other observations

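Other gene groups were looked at after the values of the comparison had been seen, so their counts are descriptions. Over all tested genes 43.2% were higher and 40.5% lower, 10.5% at least 2-fold higher and 14.5% at least 2-fold lower. The vacuolar proton pump (Atp6 genes) rose in 16 of 18 tested members, 6 at least 2-fold, with a median log2 fold change of 0.76. Kinesins, the motors of microtubules, were 16 lower and 9 higher of 27, with 10 at least 2-fold lower and 5 at least 2-fold higher. Integrins, the receptors that hold cells to the matrix, included 10 of 23 at least 2-fold lower and 2 at least 2-fold higher. Hox genes, which mark the body position a fibroblast came from, were 14 lower and 5 higher of 24, with 8 at least 2-fold lower. All 3 tested Wnt ligands were at least 2-fold lower and all 3 tested Prl2c genes at least 2-fold higher, the latter sharing sequence.

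Gene structure moved with the response only weakly. The 608 genes whose longest annotated transcript has 1 exon had a median log2 fold change of -0.16, and 20.2% were at least 2-fold lower. For the 10442 genes whose longest transcript has more exons the share was 13.9%. That transcript may not be the form expressed, so the 608 need not be single-exon genes. Among the 2208 genes richest in GC 18.8% were at least 2-fold lower, against 11.0% of the 2214 poorest. Among the 2146 genes with the lowest DMSO level 19.4% were at least 2-fold higher and 24.1% at least 2-fold lower, where counts are fewest and values least precise.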
